A study of Mus musculus with 4 samples.

Results

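Cyp2f2, Hal, Sds, Gls2, Hsd17b13 and Pigr are 6 genes named for their known expression on the periportal side of the liver lobule, and they were followed here in single liver nuclei of mice. They were taken by name, as 6 of the 54464 genes in the deposited count matrix. Each was described across the authors' hepatocyte clusters and between genotypes. All 6 had enough counts to be tested.

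Hepatocytes line plates that run from the portal tract, where blood enters the lobule, to the central vein, where it leaves. Oxygen, hormones and Wnt signals form gradients along this path, and hepatocytes on the portal side carry much of the gluconeogenesis, amino acid breakdown and urea formation, whereas glutamine synthesis and many cytochrome P450 enzymes are found around the central vein. Hal (histidine ammonia-lyase) starts the breakdown of histidine, Sds (serine dehydratase) turns serine into pyruvate, and Gls2 (liver-type glutaminase) releases ammonia from glutamine. Cyp2f2 is a cytochrome P450 that oxidises xenobiotics such as naphthalene. Hsd17b13 is a dehydrogenase on the surface of lipid droplets, and Pigr is the receptor that carries polymeric immunoglobulin across epithelial cells into bile.

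Single-nucleus RNA-Seq was performed on liver nuclei of 3 WT and 3 HNKO (hepatocyte-specific Nampt knockout) mice. Both groups carried floxed Nampt alleles (Nampt fl/fl) on a C57BL6/BomTac background, and HNKO mice also carried Cre driven by the albumin promoter (Alb-Cre), which is active in hepatocytes, so that the WT littermates were floxed without Cre. The mice were female, were 8 to 12 weeks old when the experiment began, and received a purified control diet for 6 weeks. They came from a cohort in which some mice were given nicotinamide riboside, and which arm each of the 6 mice belonged to is not given in the sources used here. Mice were told apart by the hashtag antibody with which each one was stained before pooling, and the mouse numbers below only name them.

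The data held 5193 nuclei with 5193 distinct barcodes, and 4410 of them were in the 13 clusters that the authors named as hepatocytes, with 562 to 847 nuclei and 3524497 to 6635290 unique molecular identifiers (UMIs) per mouse. The median depth of a hepatocyte nucleus was 3572 to 4162 UMIs for WT and 4800 to 5786 UMIs for HNKO. HNKO mouse 3 stood apart. Its summed level of 6 hepatocyte markers was 9186 CPM (UMIs per 1000000 UMIs of the sum), against 20486 to 27025 in the other 5 mice, and its scaling factor in the trimmed mean of M values (TMM) was 1.28, against 0.917 to 1.01. Much of the gap in the marker sum came from Cps1, at 3336 TMM-scaled CPM in HNKO mouse 3 and 13900 to 19352 in the others. Alb was at 3004 CPM, against 4620 to 7281. Both markers are also among the other periportal genes listed below. Nampt itself did not separate the genotypes, with 91.7, 108 and 103 CPM in WT mice 1, 2 and 3 and 91.7, 147 and 70.9 CPM in mice labelled HNKO 1, 2 and 3. Which part of Nampt the Cre removes is not given in the sources used here, so the reads may lie outside it, and this level checks nothing about the labels. WT and HNKO below are therefore the labels of the mice.

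The genes lie on several chromosomes (GRCm38). Hal is at chr10:93488768-93519304 on the forward strand and Gls2 at chr10:128194457-128210004, also forward. Sds (chr5:120476526-120483932, forward) and Hsd17b13 (chr5:103955440-103977410, reverse) share chromosome 5. Cyp2f2 is at chr7:27119909-27133660 and Pigr at chr1:130826684-130852249, both forward. Of the 6 genes, 4 had a promoter in the RefSeq table of GRCm38.p6. The bases upstream of the start are shown for 3 of them that differ in what was measured below: Hal had the largest genotype difference, Hsd17b13 the most even level among mice, and Pigr the weakest zonation. Capitals mark matches to 4 motifs that were picked after the sequences had been seen and were searched on both strands, namely the TCF/LEF core CTTTGAT, the cAMP response element half-site TGACG, the half-site CAAAGTCC of HNF4 type, and the TATA box TATAAA.
Hal, chr10:93488518-93488767, forward strand: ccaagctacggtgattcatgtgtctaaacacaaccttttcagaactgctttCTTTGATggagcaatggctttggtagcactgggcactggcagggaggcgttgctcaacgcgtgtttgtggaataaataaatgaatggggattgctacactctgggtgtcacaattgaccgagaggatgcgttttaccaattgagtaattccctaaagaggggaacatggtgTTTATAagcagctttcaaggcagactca
Hsd17b13, chr5:103977411-103977638, reverse strand: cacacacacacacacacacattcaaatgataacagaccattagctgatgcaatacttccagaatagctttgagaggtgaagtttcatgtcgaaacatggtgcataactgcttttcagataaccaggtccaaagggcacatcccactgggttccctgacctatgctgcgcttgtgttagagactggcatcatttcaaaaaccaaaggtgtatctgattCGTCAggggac
Pigr, chr1:130826434-130826683, forward strand: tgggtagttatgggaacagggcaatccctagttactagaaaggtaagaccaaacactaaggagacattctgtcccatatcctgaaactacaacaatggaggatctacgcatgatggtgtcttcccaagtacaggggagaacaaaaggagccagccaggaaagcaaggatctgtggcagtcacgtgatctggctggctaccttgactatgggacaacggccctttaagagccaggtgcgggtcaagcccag

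The Hal promoter held the TCF/LEF core, a sequence bound by partners of beta-catenin, which was in 3.23% of the 27025 promoters in the table. It also held the TATA box on the other strand, which 13% of promoters held. The Hsd17b13 promoter held the half-site of the cAMP response element on the other strand, as did 17.9% of promoters. The Pigr and Cyp2f2 promoters held no match to these letters, and the half-site of HNF4 type, in 1.22% of promoters, was in none of the 4.

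To ask where along the plate the genes were read, their levels were first given per hepatocyte cluster as CPM of the summed UMIs. The authors made the clusters from these nuclei with these genes among others, so the levels are a description. Of the 6 genes, 5 were highest in a cluster named Periportal and lowest in a cluster named Central, and Pigr was highest elsewhere. Cyp2f2 ranged from 281 CPM in Periportal 3 to 2.31 in Central HNKO 2, a ratio of 121. That lowest level rested on 1 UMI in 78 nuclei, so the ratio is imprecise and does not rank Cyp2f2 above the other genes. Hal ranged from 1226 CPM in Periportal 3 to 13.4 in Central HNKO 1, a ratio of 91.8, and Sds from 1727 in Periportal 2 to 18.9 in Central HNKO 1, a ratio of 91.2. The 3 Periportal clusters held the first 3 places for each of these genes and the 3 Central clusters the last 3. Gls2 ranged from 379 CPM in Periportal 2 to 8.35 in Central HNKO 1, a ratio of 45.4. Hsd17b13 ranged from 492 CPM in Periportal 3 to 25.6 in Central 1, a ratio of 19.2. Both kept the same first 3 and last 3 clusters. Pigr had the narrowest range, from 117 CPM in Hepatocytes 2 to 14.5 in Central HNKO 1, a ratio of 8.06.

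**Figure D1:**
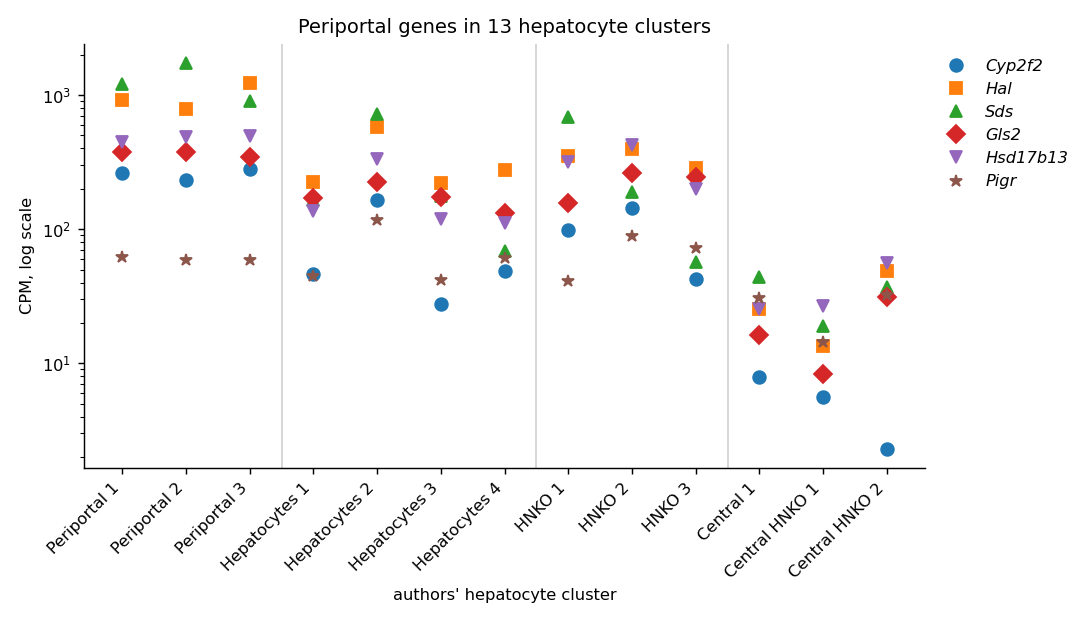
Levels of the 6 genes (CPM, log scale) in each of the authors' 13 hepatocyte clusters, 1 point per gene and cluster, all mice summed. In the 3 Central clusters on the right Cyp2f2 is at 2.31 to 7.94 CPM, against 233 to 281 in the 3 Periportal clusters on the left. The 2.31 CPM in Central HNKO 2 rests on 1 UMI. Pigr, in contrast, is highest in Hepatocytes 2.

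Pooled by the zone in the cluster names, Hal was at 944 CPM in Periportal clusters, 317 CPM in clusters named for neither zone and 25.2 CPM in Central clusters. Sds was at 1285, 323 and 33.7 CPM and Cyp2f2 at 258, 81.5 and 6.09 CPM in the same order. For these enzymes the clusters of neither zone sat between the zones. Gls2 was at 371, 190 and 16 CPM and Hsd17b13 at 464, 247 and 31.2 CPM. Pigr was at 60.6 CPM in Periportal clusters, 58.1 CPM in clusters of neither zone and 25.2 CPM in Central clusters. In these pooled levels its difference lay between Central clusters and the rest. HNKO mouse 2 was an exception, with Pigr at 49.0 CPM in Central clusters and 48.0 CPM in clusters of neither zone. In every other mouse the Central level was the lower of these. With all nuclei thinned to an equal depth, the share with a Pigr UMI differed little. It was 5.12% in Periportal clusters, 6.47% in clusters of neither zone and 4.62% in Central clusters.

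The clusters were unevenly filled by the mice, which limits what a cluster says about a zone. In WT mice 1, 2 and 3, 38.4, 34.6 and 40.6% of hepatocyte nuclei were in Periportal clusters, and in HNKO mouse 2 this share was 46.2%. It was 0.493% in HNKO mouse 1 and 0.118% in HNKO mouse 3. HNKO mouse 1 supplied 99.1% of the cluster HNKO 1, and HNKO mouse 3 supplied 97.0% of HNKO 2 and 99.0% of HNKO 3. The periportal genes were read in these clusters too. Hal was at 354, 399 and 288 CPM in HNKO 1, 2 and 3, and Hsd17b13 was at 423 CPM in HNKO 2 and 201 CPM in HNKO 3. Sds differed most among them, with 682 CPM in HNKO 1, 188 CPM in HNKO 2 and 57.1 CPM in HNKO 3. The clusters Central HNKO 1 and Central HNKO 2, which were 98.9 and 100% nuclei of HNKO mouse 1 and of HNKO mouse 3, held Hal at 13.4 and 48.6 CPM.

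Where several mice shared a cluster, the genes could be set side by side within it. In Periportal 1, Hal was at 1255 CPM in WT mouse 2 and 718 CPM in HNKO mouse 2, whereas Cyp2f2 was at 190 and 300 CPM and Sds at 1054 and 1301 CPM in the same nuclei. Hal was therefore lower and the other 2 genes higher in the HNKO mouse, with 1 mouse of each genotype and no replicate check. Within the same pair of mice, Gls2 was at 364 and 385 CPM and Hsd17b13 at 478 and 422 CPM. In Hepatocytes 2, which held at least 30 nuclei of 5 mice, Hal was at 700, 801 and 308 CPM in WT mice 1, 2 and 3 and at 419 and 543 CPM in HNKO mice 1 and 2. The genotypes overlapped there. Pigr in this cluster was at 115, 125 and 154 CPM in the WT mice and at 124 and 82.9 CPM in the HNKO mice.

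Over the 13 clusters, the levels of the 6 genes as log2(CPM + 1) moved together to different degrees. Pearson's r was highest between Hal and Gls2 (0.97) and lowest between Sds and Pigr (0.58). Hal and Hsd17b13 had r of 0.96, and Cyp2f2 had r of 0.94 with both Hal and Hsd17b13. The clusters share mice, depth and the genes that defined them, so these values describe the 13 points. Among 3159 other genes, the 3 most alike were Hsd17b6, Gldc and Tcf7l1 for Cyp2f2 (r of 0.975, 0.961 and 0.949) and Hsd17b6, Acly and Sfxn1 for Hal (r of 0.970, 0.967 and 0.965). Gldc encodes an enzyme of glycine cleavage and Acly the ATP citrate lyase that supplies acetyl-CoA for lipid synthesis. For Sds they were Etnppl, Gldc and Hsd17b6 (0.959, 0.924 and 0.915), and for Hsd17b13 they were Tcf7l1, Acaca and Sfxn1 (0.978, 0.972 and 0.952). Gls2 was most like Jazf1 (0.981), the row ENSMUSG00000112276 (0.975) and Aspg (0.974). Pigr had another set, Dbi, Rida and Vtn (0.926, 0.906 and 0.894), and Vtn encodes vitronectin, a protein that the liver secretes.

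An axis that does not use the 6 genes was then built within each mouse, to avoid the uneven clusters. Hepatocyte nuclei were ranked by the share of their UMIs that came from 14 pericentral genes, among them Glul (glutamine synthetase) and Cyp2e1, and cut into 5 bins of equal size. The 14 genes were left out of the CPM total. A bin is a range of nuclei and not a cell type. All 6 genes were higher in the lowest pericentral bin than in the highest one in 6 of 6 mice. Sds was at 855, 943 and 1819 CPM in the lowest bin of WT mice 1, 2 and 3 and at 53.5, 185 and 67.8 CPM in the highest bin. In HNKO mice 1, 2 and 3 it was at 1044, 1198 and 192 CPM in the lowest bin and at 49.8, 201 and 36.0 CPM in the highest. The Sds level thus fell along the axis in every mouse, from a much lower start in HNKO mouse 3. Hal was at 1437, 1037 and 924 CPM in the lowest bin of the WT mice and at 461, 748 and 385 CPM in that of the HNKO mice. Every HNKO mouse lay below every WT mouse in this bin, which held for none of the other 5 genes and for 232 of the 7623 genes tested there (3.04%).

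The zonation contrast was taken as log2 of the ratio of CPM + 1 between the lowest and the highest bin. It averaged 3.39 for Sds, with a range over the mice of 2.34 to 4.73, and 3.17 for Cyp2f2, with a range of 2.15 to 4.11. Hal averaged 2.71 (2.00 to 3.41), Hsd17b13 2.69 (1.95 to 3.28) and Gls2 1.92 (1.53 to 2.71). Pigr averaged 0.65, with a range of 0.30 to 0.96, and its highest value was below the lowest value of each of the other 5 genes. Between neighbouring bins, Sds and Hsd17b13 went down in 24 of 24 steps, Cyp2f2 in 23, Hal and Gls2 in 22 and Pigr in 16. The highest bin of Cyp2f2 rested on 10 to 62 UMIs per mouse, so its contrast is less precise than its level. Pigr had few UMIs at both ends, with 33 to 99 per mouse in the lowest bin and 24 to 48 in the highest. Its contrast and its steps between bins are therefore imprecise too.

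**Figure D2:**
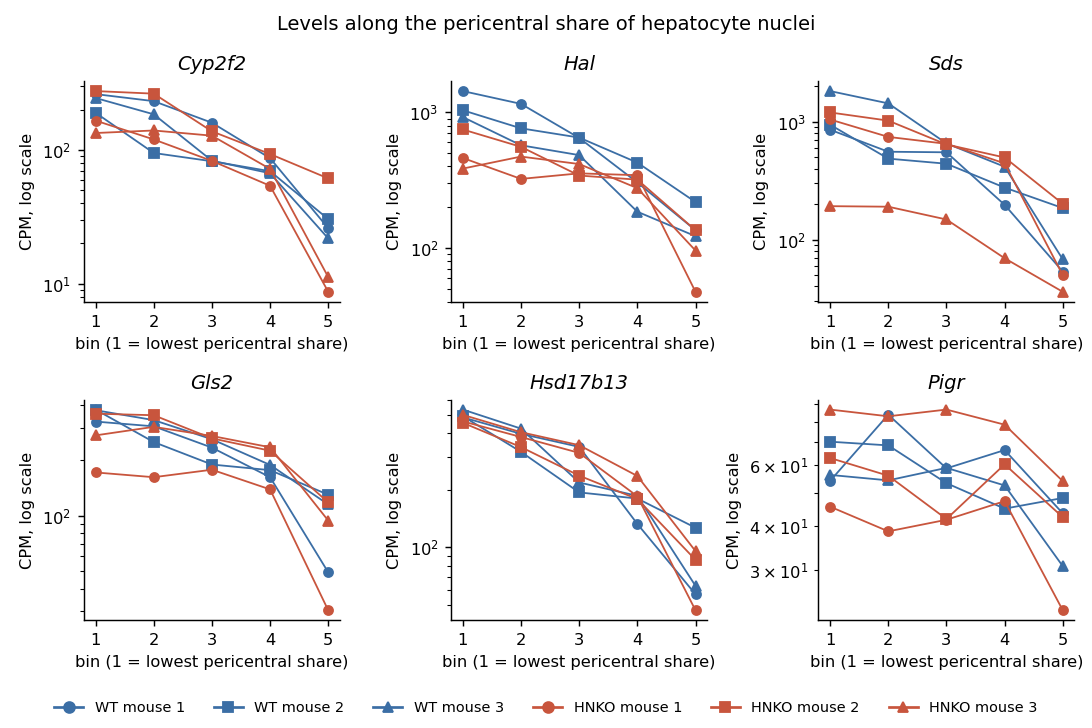
Levels of each gene (CPM, log scale) in 5 bins of the hepatocyte nuclei of each mouse, from the lowest to the highest share of pericentral UMIs; each line is 1 mouse (blue WT, red HNKO). The lines of 5 genes run down to the highest bin, those of Pigr are the flattest, and HNKO mouse 3 has the lowest Sds in all bins.

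The zonation contrast was compared between genotypes to ask whether the slope along the axis differed. The mean contrast of Hal was 2.86 ± 0.58 (SD, n = 3) in WT mice and 2.57 ± 0.64 (SD, n = 3) in HNKO mice. The mean contrast of Sds was 3.68 ± 1.22 and 3.11 ± 1.09 in the same groups. The HNKO minus WT differences were 0.13 for Cyp2f2, -0.28 for Hal, -0.57 for Sds, -0.12 for Gls2, -0.02 for Hsd17b13 and 0.17 for Pigr. None passed the test, with exact permutation p of 0.4 to 1.00, two-sided, and 0.960 to 1.00 after Benjamini-Hochberg adjustment over the 6 genes, in a design that cannot go below 0.1. With 3 bins in place of 5 all 6 differences were negative, with -0.94 for Hal (exact permutation p of 0.2) and -0.48 for Gls2 (exact permutation p of 0.1, before adjustment), and without Cyp2c29 in the list, an alternative added after the data were seen, Sds moved to -1.27 (exact permutation p of 0.2). The axis was not the same in each mouse. The lowest bin ended at 0.0135 to 0.113% pericentral UMIs, 123 hepatocyte nuclei of HNKO mouse 1 and 94 of HNKO mouse 3 had no pericentral UMI, and Cyp2c29, a member of the pericentral list, ranged from 166 to 2591 CPM among the mice.

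Genotypes were next compared in all hepatocyte nuclei, summed per mouse and scaled by TMM, with edgeR's quasi-likelihood test. No gene of the 6 passed a false discovery rate (FDR) of 0.05, and none of the 11810 genes tested did (0%). At an unadjusted p under 0.05 there were 698 genes (5.91%), and Hal was the only one of the 6 among them. The DESeq2 test called 21 genes, none of them among the 6. Fewer cells of a kind and less RNA per cell cannot be told apart in these sums.

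Hal was at 777, 642 and 488 CPM in WT mice 1, 2 and 3, and the HNKO mice, in the same order, were at 335, 421 and 267 CPM. Every HNKO mouse was below every WT mouse, as for 619 of the 11810 genes (5.24%). The means were 636 ± 145 (SD, n = 3) and 341 ± 77.6 CPM (SD, n = 3). The log2 fold change was -0.90 with a standard error of 0.26 and a 95% interval of -1.51 to -0.29. Its edgeR p of 0.00950 ranked 105 of 11810 genes and became an FDR of 0.82. Without each mouse in turn the change was -1.08 to -0.73. In the lowest pericentral bin alone it was -1.20 (interval -1.97 to -0.42, edgeR FDR 0.69) and in the highest bin -0.89 (interval -1.72 to -0.07, FDR 1), so it was negative at both ends of the axis.

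Sds varied most. It was at 467, 481 and 926 CPM in the WT mice and at 644, 717 and 104 CPM in the HNKO mice. HNKO mice 1 and 2 lay within the WT range and HNKO mouse 3 lay far below all others. The log2 fold change was -0.36 (SE 0.63, 95% interval -1.81 to 1.1, edgeR FDR 0.93). It was 0.13 without HNKO mouse 3 and 0.04 without WT mouse 3, so its sign depended on single mice. The low hepatocyte marker sum of HNKO mouse 3 stands beside this value, and its part in the result was not tested. Much of the gap in that sum came from Cps1, itself a periportal gene.

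Gls2 was at 232, 233 and 271 CPM in the WT mice and at 149, 265 and 190 CPM in the HNKO mice. The groups overlapped through HNKO mouse 2. The log2 fold change was -0.28 (SE 0.24, 95% interval -0.83 to 0.27, edgeR FDR 0.85), and it was -0.53 without HNKO mouse 2 and -0.10 without HNKO mouse 1. Gls2 and Hal, the 2 genes closest in their pattern over clusters, thus differed in that only Hal kept the genotypes apart, and the difference between the 2 changes was not tested.

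Cyp2f2 was at 164, 96.5 and 127 CPM in the WT mice and at 95, 167 and 79.5 CPM in the HNKO mice. HNKO mouse 2 had the highest level of all and the other 2 HNKO mice the lowest. The log2 fold change was -0.18 (SE 0.32, 95% interval -0.91 to 0.55, edgeR FDR 0.93), and its sign turned without HNKO mouse 3 (0.04) or without WT mouse 1 (0.02).

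Hsd17b13 had the most even level. It was at 300, 272 and 303 CPM in the WT mice and at 306, 260 and 256 CPM in the HNKO mice, with a log2 fold change of -0.09 (SE 0.18, 95% interval -0.49 to 0.32, edgeR FDR 0.94). Pigr was at 66.9, 58.8 and 54.2 CPM in the WT mice and at 42.9, 52.4 and 61.6 CPM in the HNKO mice, with a log2 fold change of -0.19 (SE 0.19, 95% interval -0.64 to 0.25, edgeR FDR 0.85). For both genes the groups overlapped, and scaling to the UMI total alone turned the sign, to 0.08 and 0.01. That scaling, added after the data were seen, moved the median log2 fold change of all genes from 0.02 to 0.20, so both genes still lay below that median. Under it HNKO mouse 3 had the highest Pigr level of all mice (79.0 CPM).

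**Figure D3:**
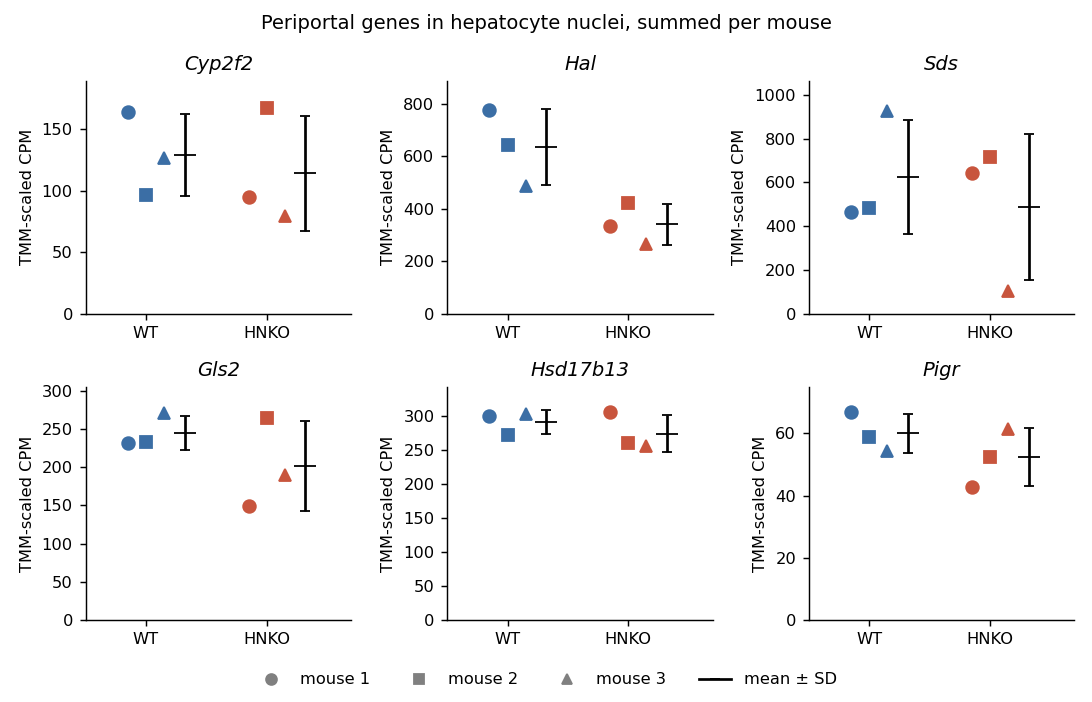
TMM-scaled CPM of each gene in the summed hepatocyte nuclei of each mouse (symbols) with the group mean and SD (n = 3, black). Only for Hal does every HNKO mouse (267 to 421 CPM) lie below every WT mouse (488 to 777 CPM), and for Sds HNKO mouse 3 lies at 104 CPM.

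**Figure D4:**
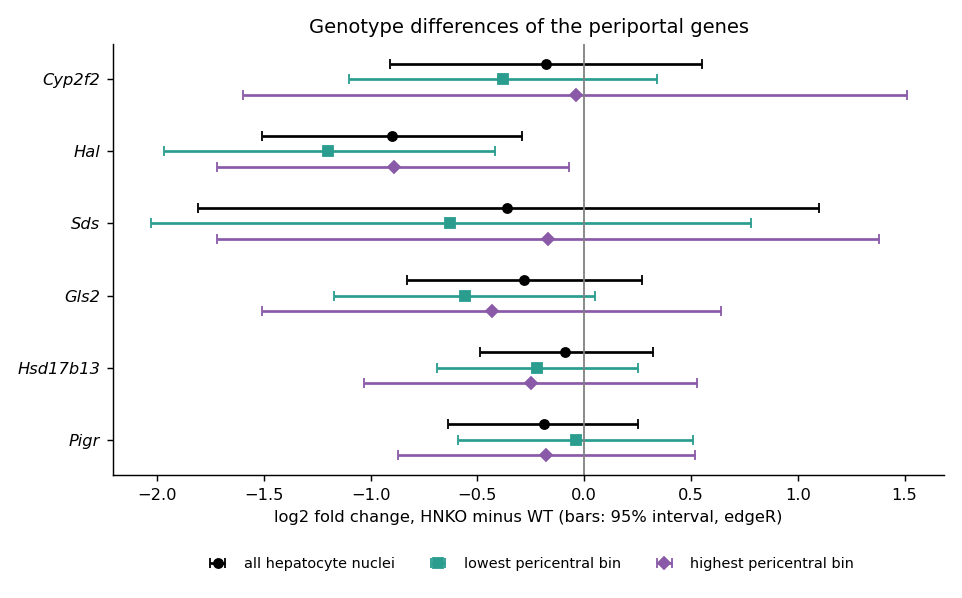
Log2 fold change of each gene, HNKO minus WT, with its 95% interval from edgeR, over all hepatocyte nuclei and in the lowest and highest pericentral bin. The interval of Hal lies below 0 in all 3 fits, those of the other genes include 0, and no change passed the FDR threshold.

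The share of hepatocyte nuclei with at least 1 UMI of a gene was compared after every nucleus had been thinned to 1000 UMIs. All hepatocyte nuclei reached that depth. Hal was read in 38.6, 30.0 and 23.1% of nuclei of WT mice 1, 2 and 3 and in 22.2, 26.1 and 23.1% of nuclei of HNKO mice 1, 2 and 3. WT mouse 3 was at the level of the HNKO mice, so the groups overlapped in this measure. The means were 30.6 ± 7.75% (SD, n = 3) and 23.8 ± 2.06% (SD, n = 3), and without thinning the 6 mice ranged from 47.8 to 61.0%. Hsd17b13 was read in 23.0, 19.5 and 20.2% of WT nuclei and in 21.1, 19.8 and 25.6% of HNKO nuclei. Its groups overlapped after thinning, whereas without thinning every HNKO mouse (56.5 to 68.6%) was above every WT mouse (51.5 to 54.2%), a difference of 8.99 percentage points (exact permutation p of 0.1, the smallest the design allows), with deeper nuclei in each HNKO mouse than in each WT mouse. Sds was read in 31.0, 31.6 and 42.8% of WT nuclei and in 35.1, 41.9 and 12% of HNKO nuclei, with HNKO mouse 3 lowest. Cyp2f2, Gls2 and Pigr were read in 4.31% (Pigr in HNKO mouse 1) to 19.5% (Gls2 in HNKO mouse 2) of nuclei. No share passed the exact permutation test, with p of 0.3 to 1.00 and 1.00 for each gene after adjustment over the 6. The background was read in the 5 other cell types, thinned in the same way, whose median depth was 3017 to 4526 UMIs against 4484 in hepatocytes. Over these types, Hal was read in 0.909% (cholangiocytes) to 8.47% (CD45+ cells) of nuclei, Sds in 1.25% (Kupffer cells) to 11.3% (CD45+ cells) and Gls2 in 1.25% (Kupffer cells) to 5.65% (CD45+ cells). Each was below the share over all hepatocytes, which was 26.6% for Hal, 32.0% for Sds and 16.7% for Gls2. The 12% Sds share in hepatocytes of HNKO mouse 3 was close to that of CD45+ cells pooled over the mice. Within HNKO mouse 3, however, Sds was read in 7.14% of endothelial and 6.67% of CD45+ nuclei. Its level in this mouse was 133 CPM in hepatocytes, 44.8 CPM in endothelial cells and 30.6 CPM in CD45+ cells. Cyp2f2 was read in 10.4% of all hepatocyte nuclei in 5.00% of Kupffer cells, the highest of the other types, and in 0 of 110 cholangiocytes, where a share of up to 2.73% could go unread. Hsd17b13 was read in 21.6% of hepatocyte nuclei and in 2.92% (stellate cells) to 13.6% (cholangiocytes). Pigr was read in 5.96% of hepatocyte nuclei, in 5.65% of CD45+ cells, in 3.67% of endothelial cells, in 3.64% of cholangiocytes, in 0.585% of stellate cells and in 0 of 80 Kupffer cells, where up to 3.75% could go unread. The Pigr share in hepatocytes was thus close to the highest of the other types and above the rest.

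Outside hepatocytes the 6 genes were read at lower levels than over all hepatocytes in all 8 other clusters. The 2 values closest to the hepatocyte level were Hal in CD45+ 2 and Hsd17b13 in Cholangiocyte 1. Somewhat further below it were Pigr in CD45+ 1 (45.1 against 56.0 CPM) and Cyp2f2 in CD45+ 2 (91.2 against 119 CPM). Albumin RNA was present in each of the 8 clusters too. In the cluster CD45+ 2, Hal was at 420 CPM, against 449 CPM over all hepatocytes. Its 83 UMIs there came from 13 of the 47 nuclei. The cluster also held albumin at 2770 CPM and a hepatocyte marker sum of 11041 CPM. Hsd17b13 stood out in Cholangiocyte 1, where 40 of 76 nuclei had a UMI and the level was 279 CPM, against 284 CPM over all hepatocytes and 27.1 CPM in Cholangiocyte 2. It was at 212 CPM (47 UMIs) in HNKO mouse 1 and 335 CPM (97 UMIs) in HNKO mouse 3, which gave 30 and 45 of the 76 nuclei, so that no comparison with WT mice could be made. Cyp2f2 (5.82 CPM) and Hal (15.5 CPM) had their lowest levels of the 8 clusters there, and Sds was at 46.6, Gls2 at 28.1 and Pigr at 21.3 CPM. The hepatocyte marker sum of Cholangiocyte 1 was 2032 CPM and its cholangiocyte marker sum 9196 CPM, so Hsd17b13 was near its hepatocyte level while the other hepatocyte RNAs listed were not.

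**Figure D5:**
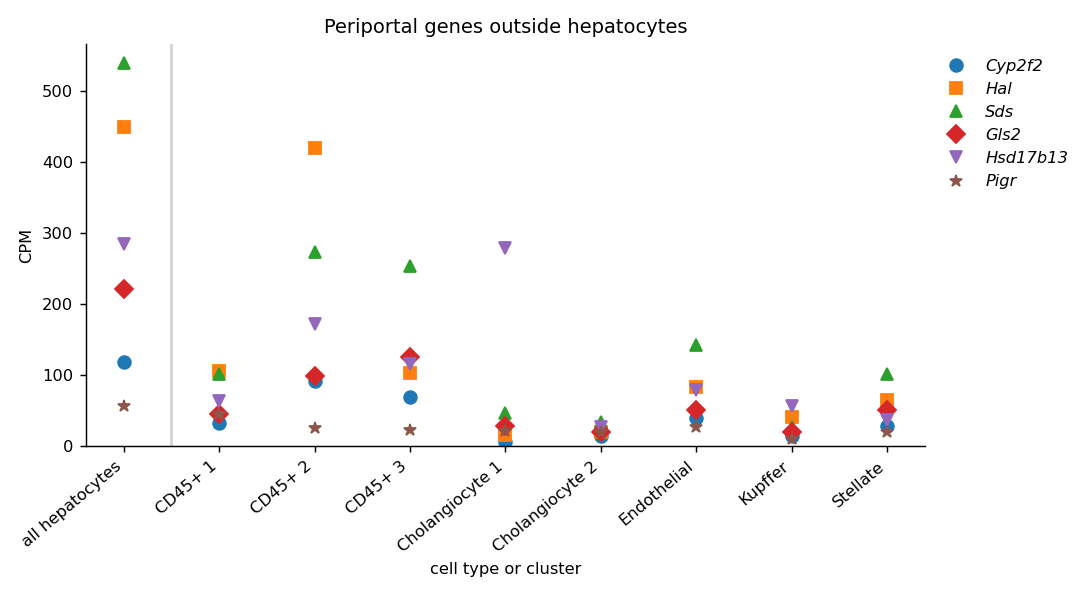
Levels of the 6 genes (CPM, linear scale) over all hepatocytes and in each of the 8 other clusters, 1 point per gene and cluster, all mice summed. Hsd17b13 in Cholangiocyte 1 (279 CPM) and Hal in CD45+ 2 (420 CPM) lie near their hepatocyte levels of 284 and 449 CPM.

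Markers of other cells in the hepatocyte sums differed among the mice. The summed level of 9 cholangiocyte markers was 638 CPM in HNKO mouse 1 and 521 CPM in HNKO mouse 3, against 305 to 350 CPM in the other 4 mice. Pkhd1 alone read 641 (HNKO mouse 1), 283 (HNKO mouse 2) and 356 (HNKO mouse 3) on the TMM scale. Its WT range was 312 to 333. The marker sums are relative to the UMI total instead, and the TMM factor of 1.28 lowers the Pkhd1 value of HNKO mouse 3 beside them. This gene could make up most of each sum. The sums therefore do not show whether the other cholangiocyte markers rose, which was not tested. Krt19 was at 0 in all 6 mice, and Epcam in HNKO mouse 1 and WT mice 1 and 3. Krt7 was at 0 in WT mouse 1 and HNKO mouse 2, and Sox9 in WT mouse 2. For 6 stellate cell markers the sum was 194 CPM in HNKO mouse 1, 122 CPM in HNKO mouse 3 and between 30.7 and 88.6 CPM in the others. Sums of endothelial (28.2 to 42.7 CPM), Kupffer (5.30 to 12.7 CPM) and CD45+ markers (9.65 to 18.5 CPM) were low in every mouse. Their part in the values of the 6 genes was not tested.

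The changes of the 6 genes were read beside related lists in the same fit. Their median change on the log2 scale was -0.24, all 6 with a negative sign, against a median of 0.02 over all genes. Of the 11810 genes tested, 5626 had a negative sign. Among 20 other periportal genes, 16 had negative and 4 positive changes, with a median of -0.33, and none passed the FDR threshold. The 4 with the smallest p were Cdh1, Hsd17b6, Apoa4 and G6pc. Hsd17b6, the gene most like Cyp2f2 and Hal over clusters, was at 358, 437 and 227 CPM in the WT mice and at 131, 227 and 92.3 CPM in the HNKO mice (log2 fold change -1.18, edgeR FDR 0.82). G6pc, the last enzyme of glucose release, had a change of -1.04 (FDR 0.82), with 216 CPM in HNKO mouse 3. Cdh1 (E-cadherin) and Apoa4, an apolipoprotein, went the other way, with 1.6 and 1.07 (both edgeR FDR 0.82).

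Among 20 genes of amino acid catabolism, the pathway group of Hal, Sds and Gls2, 17 had negative and 3 positive changes, with a median of -0.24 and none past the threshold. Uroc1 and Sdsl are in both this list and the list of other periportal genes, so the counts are not separate. Amdhd1, which acts further along the histidine pathway that Hal opens, was at 339, 261 and 216 CPM in the WT mice and at 190, 254 and 219 CPM in the HNKO mice (log2 fold change -0.30, edgeR FDR 0.84). The groups overlapped for Amdhd1, unlike for Hal. Hpd and Fah of tyrosine breakdown had changes of -0.44 and -0.24, and Tdo2 of tryptophan breakdown had -0.61 (edgeR FDR 0.84 each).

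On the other side of the lobule, 13 of 14 pericentral genes could be tested, and 9 had positive and 4 negative changes, with a median of 0.10 and none past the threshold. Cyp1a2 and Cyp2e1, pericentral cytochrome P450 genes, had changes of -0.62 and -0.84. Cyp2c29 had -1.40 and Slc13a3, a dicarboxylate transporter, had 1.72 (edgeR FDR 0.82 for each of these genes). Slc13a3 was low in the WT mice, at 5.22, 7.85 and 2.63 CPM (17, 30 and 11 UMIs). In HNKO mice 1, 2 and 3 it was at 30.9, 11.6 and 9.09 CPM, highest in HNKO mouse 1. The 13 signals and regulators of zonation had 5 positive and 8 negative changes and a median of -0.11, with no gene past the threshold. Among them were the transcription factors Cebpa (0.77, FDR 0.82) and Creb3l3 (-0.36, FDR 0.84), and Ctnnb1 (0.21, FDR 0.85) and Tcf7l2 (-0.16, FDR 0.89) of Wnt signalling, all by edgeR.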

How the data were processed

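Liver nuclei of 6 mice were sequenced by the authors with 10x Genomics 3′ chemistry (version 3.1) as 2 RNA pools, with 2 hashtag pools. Reads were mapped by the authors with Alevin on GRCm38 and GENCODE M25, and the deposited matrix holds estimated counts of UMIs, part of them fractional. A second deposited matrix holds SCTransform-corrected values, a score, which was used as an alternative. Cluster names and mouse assignments are the authors'. Nuclei with hashtags of several mice had been removed by the authors, and no doublet caller was run.

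Counts were summed per mouse over the 13 hepatocyte clusters, rounded, and tested with edgeR version 4.0.16 (filterByExpr, TMM, quasi-likelihood, genotype alone, two-sided, FDR 0.05). CPM are relative to the UMI total times the TMM factor in the genotype comparison and to the UMI total elsewhere. DESeq2 version 1.42.0 was an alternative. Shares and zonation contrasts were compared by exact permutation over mice. On simulated sums of 11629 genes, edgeR recovered 96% of 200 genes with a log2 change of 2. Every simulated gene had the same spread between mice, and smaller changes were not simulated. The recovery therefore does not show whether changes of the size and spread of the 6 genes could be called. Named genes were the 6, Nampt, the 4 smallest p per list, and the 3 most alike per gene among those of at least 50 CPM. The genes and lists were chosen with earlier results of these data known.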

Additional observations from a re-analysis of the deposited data

How the results depend on the processing

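No alternative brought any of the 6 genes past its threshold. Of 54 member effects under other settings, 48 kept their sign; SCTransform-corrected means turned Cyp2f2 (0.01), Hsd17b13 (0.13) and Pigr (0.03), per-nucleus CPM turned Hsd17b13 (0.09), and scaling to the UMI total, added after seeing the data, turned Hsd17b13 (0.08) and Pigr (0.01). Leaving out 1 mouse gave log2 fold changes of -0.56 to 0.04 for Cyp2f2, -1.08 to -0.73 for Hal, -0.74 to 0.13 for Sds, -0.53 to -0.10 for Gls2, -0.17 to -0.03 for Hsd17b13 and -0.32 to -0.07 for Pigr. Genes past the threshold numbered 0, but 21 with DESeq2, 35 with no filter on low counts, and 0 to 32 without 1 mouse, the 32 without HNKO mouse 2. The cause of these changes was not tested.

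Without thinning, the HNKO minus WT difference in nuclei with a UMI turned to 1.35 percentage points for Cyp2f2, 5.65 for Gls2 and 3.44 for Pigr, and moved to 8.99 for Hsd17b13 (exact permutation p of 0.1), -1.33 for Hal and -2.64 for Sds. At 2000 UMIs it moved by over 1.5 times, with its sign kept, for Cyp2f2 (-2.74), Gls2 (-0.915), Hsd17b13 (2.04) and Pigr (-0.687). Without 1 mouse it was -3.18 to -0.785 for Cyp2f2, -10.5 to -2.76 for Hal, -11.5 to 3.39 for Sds, -2.0 to 2.1 for Gls2, -0.478 to 2.44 for Hsd17b13 and -1.28 to 0.693 for Pigr. The genotype difference of the zonation contrast turned with 3 bins in place of 5 for Cyp2f2 (-0.26) and Pigr (-0.21), without Cyp2e1 in the list for Gls2 (0.17) and Hsd17b13 (0.03), and without Cyp2c29, added after seeing the data, for Cyp2f2 (-0.01) and Pigr (-0.25). It kept its sign but moved by over 1.5 times with 3 bins for Hal (-0.94), Gls2 (-0.48) and Hsd17b13 (-0.28), with the share from thinned nuclei for Cyp2f2 (0.01), Hal (-0.72), Gls2 (-0.07) and Hsd17b13 (-0.28), without Cyp2c29 for Hal (-0.66), Sds (-1.27), Gls2 (-0.54) and Hsd17b13 (-0.39), without Cyp2e1 for Sds (-0.21) and Pigr (0.08), and with a pseudocount of 5 CPM for Cyp2f2 (0.01). Without 1 mouse it was -0.30 to 0.68 for Cyp2f2, -0.63 to 0.001 for Hal, -1.24 to -0.05 for Sds, -0.41 to 0.25 for Gls2, -0.39 to 0.17 for Hsd17b13 and 0.04 to 0.32 for Pigr.

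No paired analysis was possible because the nuclei carry no mark of their RNA pool, and so each pool alone and the pool number as a replicate block were not run. With 3 mice against 3, exact tests cannot go below 0.1, and below 0.2 without 1 mouse.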
